A study of Mus musculus with 6 samples.

Results

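Genomic imprinting silences 1 parental copy of a gene, so that a cell reads only the copy from the father or only the copy from the mother. Many imprinted genes act on fetal growth, and paternally expressed ones tend to promote it while maternally expressed ones tend to restrain it. Several of them belong to a coexpressed network that is high in embryonic mesenchyme and falls after birth. Described here are 10 such regulators, chosen by their gene symbols among the 20033 genes of the deposited table. Dlk1, Peg3, Mest, Plagl1, Peg10 and Nnat are the 6 paternally expressed genes, and H19, Meg3, Cdkn1c and Grb10 are the 4 maternally expressed ones. The reads were not assigned to parental alleles, so these classes are background and the values are the sum over both copies.

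Poly(A) RNA was sequenced from 3 mesonephroi labelled Wnt9b knockout (Wnt9b-/-) and 3 labelled control, all from male E12.5 mouse embryos. The mesonephros is the transient embryonic kidney, which holds the Wolffian duct, tubules and mesenchyme and lies against the gonad, and Wnt9b is a Wnt ligand of the duct. The knockout is described as global, that is, not restricted to the duct. For the controls the labels disagree: their genotype entry reads Heterozygous, whereas the study's design names Wnt9b+/+ embryos. Each library was labelled as its own mouse, and litters and batches are not given.

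Lower bounds on the reads behind the values, recovered from the ratios between libraries, ran from 27914871 to 32384226 per library. In the knockouts Wnt9b itself was at 23.44, 19.25 and 19.02 TPM (a level corrected for gene length and scaled to the same sum in each library), against 24.91, 26.42 and 34.04 TPM in controls. All knockouts lay below all controls, and the log2 difference of -0.44 did not pass the test (limma adjusted p = 0.266; authors' deposited table, adjusted p = 0.0263). Reads of the gene were thus present in the knockouts. The files give no value for the deleted part alone, so the level of the whole gene does not check the deletion. Markers of the duct epithelium were present in all libraries, with a summed level of 348 to 403 TPM in knockouts and 405 to 430 TPM in controls over 7 genes. Markers of the gonadal soma summed to 155 to 236 TPM in knockouts and 106 to 122 TPM in controls over 8 genes. Limma called 3 of the 7 tested higher (Nr5a1, Gata4 and Lhx9). The list did not rise as a whole: 4 of the 7 differences were positive and 3 negative, from -0.059 to 2.10 on the log2 scale. Markers of fetal Leydig cells were low, with sums of 11.04 to 18.81 TPM in knockouts and 6.54 to 8.65 TPM in controls over 4 genes. Each of the 4 was higher in every knockout than in every control, against 8.14% of all genes tested. Only 2 of the 4 reached the level required for the test. Neural and glial markers summed to 62.8, 31.3 and 16.3 TPM in knockouts 1, 2 and 3 and to 16.4 to 18.8 TPM in controls over 5 genes. Smooth muscle markers summed to 50.5, 57.8 and 84.3 TPM in knockouts 1, 2 and 3 and to 36.0 to 51.3 TPM in controls over 4 genes. Markers of the mesenchyme summed to 1528 to 1644 TPM in knockouts and 1421 to 1605 TPM in controls over 7 genes, with Tcf21 called higher (log2 difference 0.62, limma adjusted p = 0.0197) and Pdgfrb lower (-0.60, limma adjusted p = 0.0137). Endothelial markers summed to 248 to 291 TPM in knockouts and 305 to 326 TPM in controls over 5 genes, and limma called none. The authors' deposited table marks Cdh5 (adjusted p = 0.0359) and Kdr (adjusted p = 0.00199) as lower. Besides the markers that limma called, it marks as higher the mesenchymal Foxd1 (adjusted p = 1.61e-06) and the Leydig cell gene Cyp17a1 (adjusted p = 0.000734). It also marks as higher the glial Sox10 (adjusted p = 0.0496) and the smooth muscle gene Acta2 (adjusted p = 0.0459). In whole organs, a change in the number of cells of a type and a change in RNA per cell cannot be told apart. The part of these markers in the differences below was not tested.

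All 10 regulators were abundant and all entered the test, which required 1 TPM or more in 3 or more libraries. H19 ranked 11 by mean level among the 20033 genes and Mest 108, and the lowest, Peg10, ranked 1118. None of the 10 was called between knockouts and controls (limma fitted to log2(TPM + 1), Benjamini-Hochberg adjusted p over 17577 genes under 0.05), where 0.444% of all genes tested were called, 0.131% higher and 0.313% lower. At an unadjusted p under 0.05 there was 1 gene, Mest, against 11.3% of all genes tested. The authors' deposited table marks 1 of the 10, Mest, as lower and none as higher; of the genes to which it gives an adjusted p, it marks 3.55%, with 2.17% lower and 1.38% higher. The knockout and control values did not overlap for 3 of the 10, namely Mest and H19 below and Peg10 above the controls, against 16.6% of all genes tested (8.49% below and 8.14% above).

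**Figure D1:**
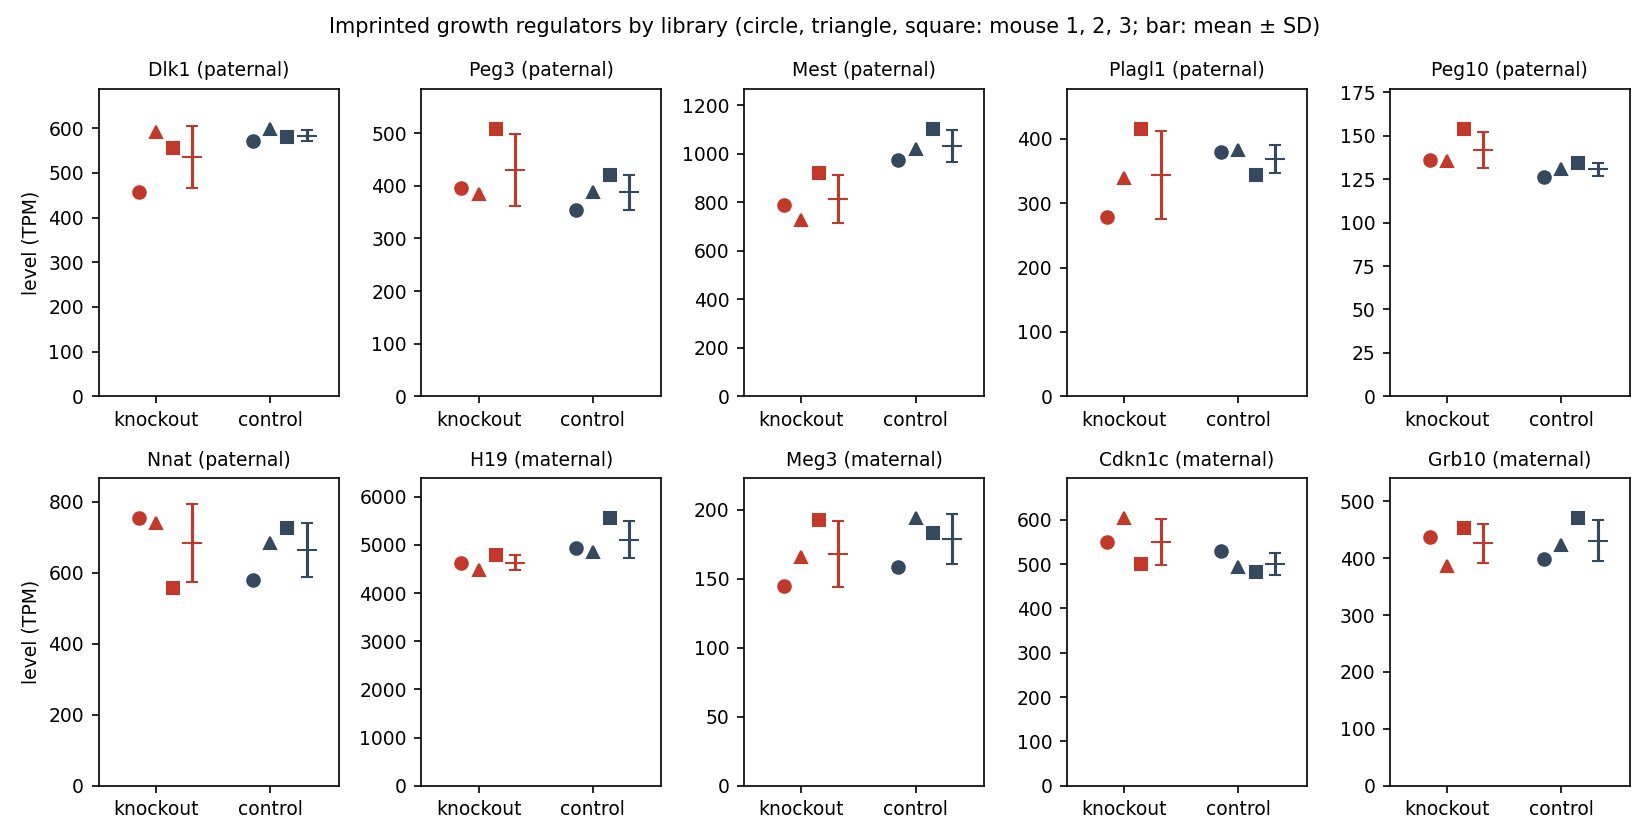
Level in TPM of each of the 10 imprinted regulators (vertical axes from 0, scaled per gene) in the 3 knockout libraries on the left and the 3 control libraries on the right of each panel, with the mean ± SD beside the points. Mest lies between 729 and 921 TPM in knockouts and between 973 and 1101 TPM in controls, and the groups overlap for 7 of the 10 genes.

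Mest (ENSMUSG00000051855) encodes an enzyme-like protein of the endoplasmic reticulum, and loss of its paternal copy slows growth in mice. It was at 789, 729 and 921 TPM in the knockouts, against 973, 1019 and 1101 TPM in the controls. Every knockout value lay below every control value, with knockout 3 the nearest to them. The mean was 813 ± 98.3 TPM in knockouts and 1031 ± 65.2 TPM in controls (SD, n = 3 each). On the log2 scale the difference was -0.35 (SE 0.094), a level 0.786 times that of the controls, and its 95% confidence interval ran from -0.56 to -0.13. Adjusted over all genes, limma's p was 0.200, so Mest was not called. In the authors' deposited table, Mest has an adjusted p of 0.00273 (log2 fold change -0.34), so the call depended on the method. It also depended on 1 library: without knockout 3 the log2 difference was -0.44 and limma's adjusted p was 0.0447. Over all alternatives tried, limma's adjusted p of Mest ran from 0.0447 to 0.516. Leaving out knockout 3 was not particular to Mest: it raised the calls over all genes from 78 to 242.

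The promoter window of Mest is shown because this gene had the largest difference of the 10, from 250 bases before to 50 bases after a RefSeq start site, at chr6:30737800-30738099 on the plus strand of GRCm38.p6. It is in lower case throughout because it holds none of the motifs searched, which are given further below.
Mest promoter: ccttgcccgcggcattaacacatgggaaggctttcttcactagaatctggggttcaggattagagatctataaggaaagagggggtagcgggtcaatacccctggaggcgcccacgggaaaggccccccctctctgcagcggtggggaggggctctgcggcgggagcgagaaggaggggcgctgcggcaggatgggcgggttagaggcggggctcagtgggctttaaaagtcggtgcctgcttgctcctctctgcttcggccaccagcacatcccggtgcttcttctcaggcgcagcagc
Mest also hosts a microRNA, and so do H19 and Meg3 among the 10. Of their mature sequences the 5p arms are shown and the 3p arms are left out. The 5p arms are shown because these genes' transcripts are also the source of small regulators, with the seed (bases 2 to 8) in capitals. The libraries were made from poly(A) RNA and do not measure the mature microRNAs. The RefSeq positions on GRCm38.p6 are chr6:30741314-30741336 (plus strand) for miR-335-5p, chr7:142577112-142577133 (minus strand) for miR-675-5p and chr12:109563710-109563731 (plus strand) for miR-770-5p. No seed is shared among these 3.
miR-335-5p (Mest): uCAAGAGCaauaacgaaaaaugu
miR-675-5p (H19): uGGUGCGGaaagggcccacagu
miR-770-5p (Meg3): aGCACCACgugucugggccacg

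Among the other paternally expressed genes, the values of Peg10 lay slightly higher in knockouts without overlap, and the remaining 4 overlapped. Peg10 (ENSMUSG00000092035), derived from a retrotransposon and needed for the placenta, was at 136, 135 and 154 TPM in knockouts, against 126, 131 and 134 TPM in controls. The lowest knockout lay just above the highest control. Its log2 difference of 0.12 (SE 0.069, 95% interval -0.042 to 0.28) did not pass the test (limma adjusted p = 0.596). Peg3 (ENSMUSG00000002265), a zinc finger transcription factor gene, had 397, 384 and 508 TPM in knockouts and 353, 388 and 421 TPM in controls. Knockout 3 was the highest of the 6 libraries and the other knockouts lay within the control range. The resulting difference of 0.14 on the log2 scale (SE 0.11) was not called (limma adjusted p = 0.710).

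Dlk1 (ENSMUSG00000040856) encodes a membrane protein related to Notch ligands that is shed and restrains differentiation. It had 458, 591 and 556 TPM in knockouts and 572, 598 and 580 TPM in controls. Knockout 1 stood apart as the lowest, and the SD was 68.9 TPM over knockouts, against 13.2 TPM over the controls. Dlk1 differed by -0.13 on the log2 scale (SE 0.093, 95% interval -0.35 to 0.082; limma adjusted p = 0.663). Plagl1 (ENSMUSG00000019817), a zinc finger factor that slows proliferation and acts on other genes of the imprinted network, was at 278, 338 and 415 TPM in knockouts, against 379, 382 and 344 TPM in controls. The knockouts held both the lowest and the highest of the 6 values. Its log2 difference was -0.12 (SE 0.13; limma adjusted p = 0.803), and without knockout 1 it was 0.027. Nnat (ENSMUSG00000067786), the gene of the small membrane protein neuronatin, had 754, 740 and 557 TPM in knockouts and 580, 685 and 727 TPM in controls. Here knockout 3 was the lowest of all libraries. Between the groups it differed by 0.035 on the log2 scale (SE 0.13; limma adjusted p = 0.948), and by -0.059 without control 1.

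Of the maternally expressed genes, H19 (ENSMUSG00000000031) is a long noncoding RNA that restrains growth and the most abundant of the 10. It was at 4630, 4474 and 4791 TPM in knockouts, against 4938, 4846 and 5554 TPM in controls. All knockouts lay below all controls, with knockout 3 and control 2 the nearest to each other. The mean was 4632 ± 158 TPM in knockouts and 5113 ± 385 TPM in controls (SD, n = 3 each). The log2 difference of -0.14 (SE 0.083, 95% interval -0.33 to 0.051) did not pass the test (limma adjusted p = 0.595). Meg3 (ENSMUSG00000021268), the long noncoding RNA of the domain that also holds Dlk1, had 145, 166 and 192 TPM in knockouts and 158, 194 and 183 TPM in controls. The ranges overlapped almost fully, with knockout 1 the lowest. The difference was -0.094 on the log2 scale (SE 0.11; limma adjusted p = 0.818), and 0.0069 without knockout 1.

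Cdkn1c (ENSMUSG00000037664) encodes an inhibitor of cyclin-dependent kinases that stops the cell cycle. It was at 550, 603 and 500 TPM in knockouts and 529, 493 and 482 TPM in controls. The 2 highest values were knockouts, and knockout 3 lay within the control range. The log2 difference of 0.13 (SE 0.080, 95% interval -0.050 to 0.32) did not pass the test (limma adjusted p = 0.6005). Grb10 (ENSMUSG00000020176) encodes an adaptor that dampens insulin and insulin-like growth factor receptors, and outside the nervous system it is read from the maternal copy. It had 438, 387 and 454 TPM in knockouts and 400, 423 and 470 TPM in controls. The groups overlapped and their means were 426 TPM in knockouts and 431 TPM in controls. On the log2 scale this is a difference of -0.015 (SE 0.085, 95% interval -0.21 to 0.18; limma adjusted p = 0.965).

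**Figure D2:**
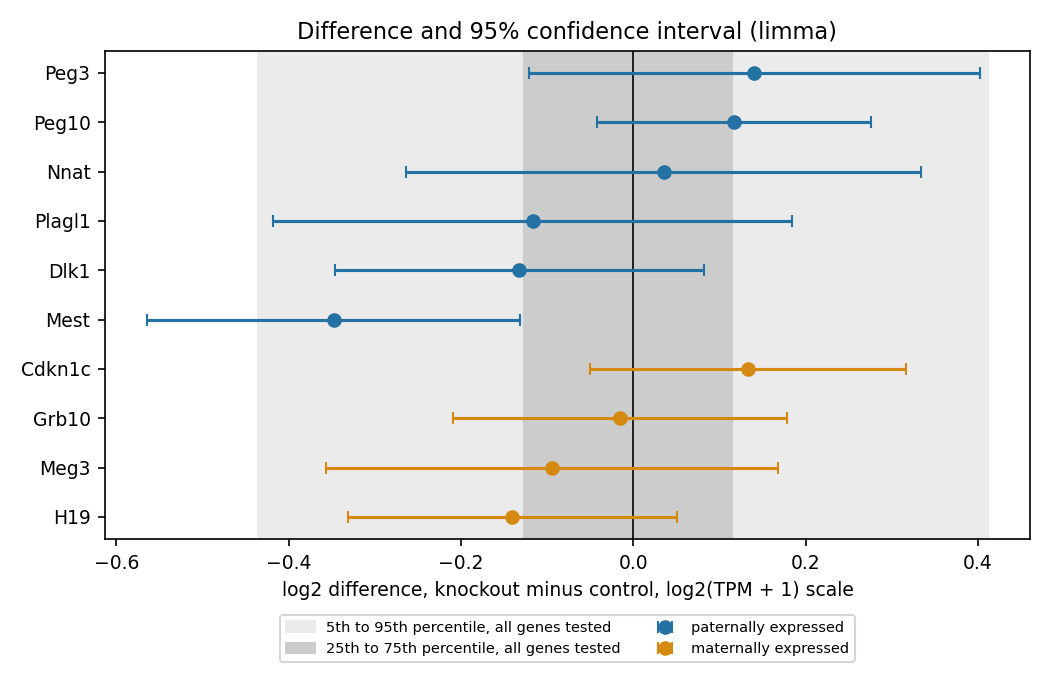
Log2 difference (horizontal axis, knockout minus control on the log2(TPM + 1) scale) of each regulator with its 95% confidence interval from limma, paternally expressed genes above and maternally expressed ones below, over the percentiles of all 17577 genes tested. All 10 points lie inside the range from the 5th to the 95th percentile (-0.44 to 0.41), and the interval of Mest is the one that leaves out 0.

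Paternally and maternally expressed regulators did not separate by direction. Of the 6 paternally expressed genes, 3 had a positive and 3 a negative difference with a median of -0.041, and of the 4 maternally expressed ones 1 was positive and 3 were negative with a median of -0.055. The median over all genes tested was -0.0075, with 8476 of 17577 positive (48.2%). Per library, the mean log2(TPM + 1) of the paternally expressed genes minus that of the maternally expressed ones was -0.66, -0.61 and -0.56 in knockouts and -0.60, -0.57 and -0.60 in controls. These values overlapped, and their means of -0.61 in knockouts and -0.59 in controls differed by -0.022. Together the 10 genes took 0.857%, 0.855% and 0.905% of TPM in knockouts and 0.901%, 0.916% and 1.00% in controls, so that knockout 3 lay above control 1. Most of the gap between the means was H19. The 6 paternally expressed genes summed to 2811, 2918 and 3110 TPM in knockouts and 2984, 3203 and 3307 TPM in controls. The other 3 maternally expressed genes summed to 1132, 1156 and 1146 TPM in knockouts and 1088, 1109 and 1135 TPM in controls.

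The knockout libraries differed more among themselves than the controls did. The SD of log2(TPM + 1) was larger over the 3 knockouts than over the 3 controls for 9 of the 10 regulators, H19 being the exception, against 64.0% of the 1750 tested genes whose mean level reached 100 TPM. Its median was 0.18 over knockouts and 0.099 over controls for the 10, and 0.096 over knockouts and 0.072 over controls for those 1750 genes. For Dlk1 the SD was 0.19 over knockouts and 0.032 over controls, and for Plagl1 it was 0.29 over knockouts and 0.085 over controls. Among the knockouts, knockout 1 was the lowest for Dlk1, Plagl1 and Meg3, and knockout 3 the highest of them for Peg3, Mest, Plagl1, Peg10, H19, Meg3 and Grb10. For Nnat and Cdkn1c knockout 3 was instead the lowest knockout. The regulators had 7174 or more recovered reads in each library, a counting error of 1.18% or less. The gonadal markers summed to 236, 203 and 155 TPM in knockouts 1, 2 and 3, so that they too, like the neural and smooth muscle markers given above, differed among the knockouts; their part in the spread of the regulators was not tested.

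**Figure D3:**
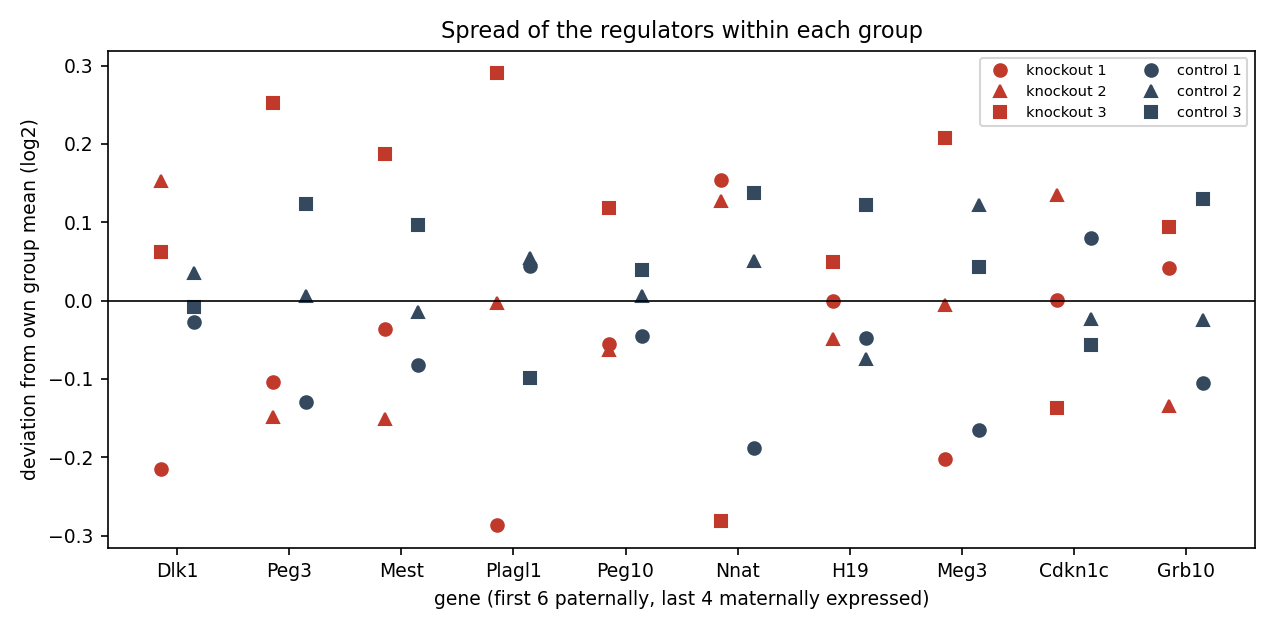
Deviation of each library from the mean of its own group (vertical axis, log2 scale) for the 10 regulators, knockouts in red on the left and controls in dark blue on the right of each gene. Knockouts 1 and 3 lie at opposite ends for Plagl1, Meg3 and Nnat.

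Genes within 1 imprinted domain share control elements, so 9 pairs of neighbours were compared as the log2 ratio of their TPM + 1; they cover all the regulators except Plagl1. For 5 of the 9 pairs the knockout and control ratios did not overlap, which gives the smallest p that an exact permutation test of 3 against 3 allows (two-sided p = 0.1, adjusted over the 9 pairs 0.18), so none passes a threshold of 0.05. Single genes did not overlap in 16.6% of cases, and no such share was computed over other pairs of genes, so the count of 5 is a description. Mest over its neighbour Copg2 was 4.01, 3.85 and 3.98 in knockouts, against 4.31, 4.36 and 4.28 in controls. Copg2 itself was at 48.1, 49.4 and 57.3 TPM in knockouts and 48.0, 48.8 and 55.6 TPM in controls, so the lower ratio came with the lower Mest. Peg10 over Sgce, which lie head to head and are both paternally expressed, was 3.18, 2.95 and 3.03 in knockouts and 2.60, 2.80 and 2.73 in controls. Sgce, a gene of the sarcoglycan family, was at 14.1, 16.7 and 18.0 TPM in knockouts and 20.1, 17.9 and 19.4 TPM in controls (log2 difference -0.22; limma adjusted p = 0.545). Cdkn1c over Kcnq1ot1, the noncoding RNA of its domain, was 7.37, 7.39 and 7.12 in knockouts and 7.04, 6.87 and 7.05 in controls. Kcnq1ot1 was low, at 2.34, 2.61 and 2.61 TPM in knockouts and 3.03, 3.21 and 2.65 TPM in controls. Its log2 difference of -0.17 (limma adjusted p = 0.777) was larger in size than the 0.13 of Cdkn1c, so the ratio rests largely on a gene of low level.

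In the domain of Dlk1 and Meg3, the ratio of Meg3 over Dlk1 overlapped, at -1.66, -1.83 and -1.52 in knockouts and -1.85, -1.62 and -1.66 in controls. Rian, a further maternally expressed noncoding RNA of that domain, had 86.1, 103 and 124 TPM in knockouts and 91.6, 105 and 96.6 TPM in controls. Its ratio over Meg3 was -0.74, -0.69 and -0.63 in knockouts and -0.78, -0.87 and -0.92 in controls, without overlap. Of the other partners, Mirg ranged from 18.9 to 27.1 TPM in knockouts and from 20.6 to 24.3 TPM in controls, Rtl1 from 7.90 to 12.8 TPM in knockouts and from 10.8 to 12.0 TPM in controls, and Dio3 lay under the filter. Mirg and Rtl1 overlapped between the groups.

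Grb10 over Ddc was 6.16, 5.68 and 6.16 in knockouts and 6.38, 6.52 and 6.81 in controls. Grb10 itself differed by -0.015 on the log2 scale, so the lower ratio rests on Ddc, a gene of low level. Ddc, the aromatic amino acid decarboxylase gene, was at 5.14, 6.60 and 5.35 TPM in knockouts and 3.80, 3.61 and 3.21 TPM in controls (log2 difference 0.56; limma adjusted p = 0.238; authors' deposited table, adjusted p = 0.0451). The ratios of Peg3 over Usp29, Nnat over Blcap and H19 over Igf2 overlapped between knockouts and controls. Igf2, the paternally expressed growth factor gene beside H19, had 105, 82.7 and 86.6 TPM in knockouts and 86.7, 107 and 141 TPM in controls (log2 difference -0.26; limma adjusted p = 0.623). Its level is uncertain, because in GENCODE M21 its whole span is covered by another gene on the same strand, Gm49394, which is not among the genes analysed here. Nnat lies wholly within Blcap on the other strand, and 3.66% of the span of Mest overlaps Copg2 on the other strand. Whether reads were counted by strand is not given in the sources used here, so such reads may be shared.

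**Figure D4:**
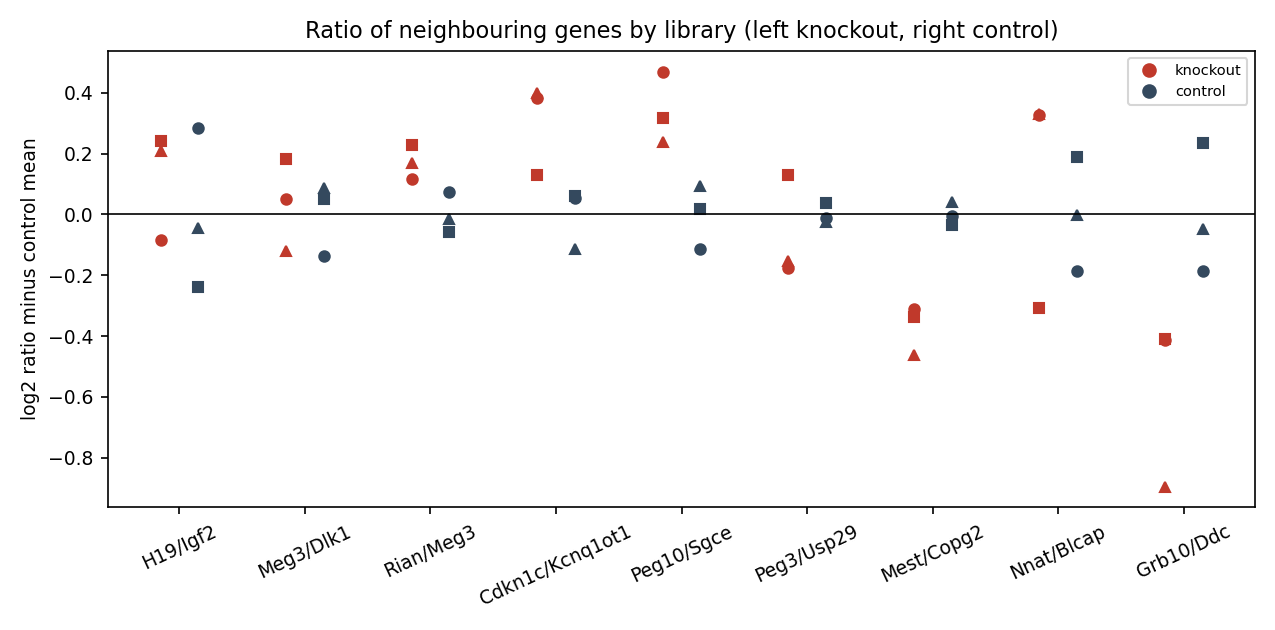
Log2 ratio of 9 pairs of neighbouring genes in each library, drawn as the difference from the control mean of that pair (vertical axis), knockouts in red on the left and controls in dark blue on the right of each pair. Mest/Copg2 and Grb10/Ddc lie below, and Rian/Meg3, Cdkn1c/Kcnq1ot1 and Peg10/Sgce above, every control.

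Genes listed as imprinted outside the 10 showed a like picture. Their parental classes are those of the lists, and whether each is imprinted in the mesonephros was not measured. Over all genes tested, 11.3% had an unadjusted p under 0.05 (limma). Of the genes with an adjusted p in the authors' deposited table, it marks 3.55% in either direction. Of 21 tested other paternally expressed genes limma called none (1 had an unadjusted p under 0.05, and the authors' deposited table marks 1 as higher), 7 were positive and 14 negative, and their median was -0.076. Of 26 tested other maternally expressed genes limma called none either (2 had an unadjusted p under 0.05, and the authors' deposited table marks 1 as lower), 13 were positive and 13 negative, and their median was -0.013. Slc38a4, an amino acid transporter gene, had a log2 difference of -0.042, and Ndn, of the necdin family, one of 0.062; they are the most abundant of the paternally expressed list. Cd81 and Nap1l4, the most abundant of the maternally expressed list, had -0.11 and 0.12.

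Magel2 and Atp10a, named after their values were seen, had the largest differences of the 2 lists. Magel2, a paternally expressed gene beside Ndn, was at 5.73, 4.01 and 3.09 TPM in knockouts, against 2.09, 1.62 and 2.26 TPM in controls. All knockouts were above all controls, and the log2 difference was 0.80 (SE 0.23; limma adjusted p = 0.227; authors' deposited table, adjusted p = 0.00603). Atp10a, a phospholipid transporter gene, was at 7.14, 6.40 and 5.43 TPM in knockouts, against 11.1, 10.7 and 13.2 TPM in controls. The knockouts lay below every control, and the log2 difference of -0.79 (SE 0.15) had a limma adjusted p of 0.0799 (authors' deposited table, adjusted p = 7.62e-06). Among domain partners, Igf2r, the receptor that clears Igf2, had a log2 difference of -0.089, Zim1 one of 0.018 and Blcap one of -0.081. Usp29 had one of 0.21, Phlda2, a placental growth restrainer, one of 0.31 and Kcnq1ot1 one of -0.17. All of these had a limma adjusted p of at least 0.608. Phlda2 (1.11 to 2.77 TPM) and Kcnq1ot1 (2.34 to 3.21 TPM) were low in every library. Usp29 lay above and Kcnq1ot1 below every control, and the others overlapped.

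**Figure D5:**
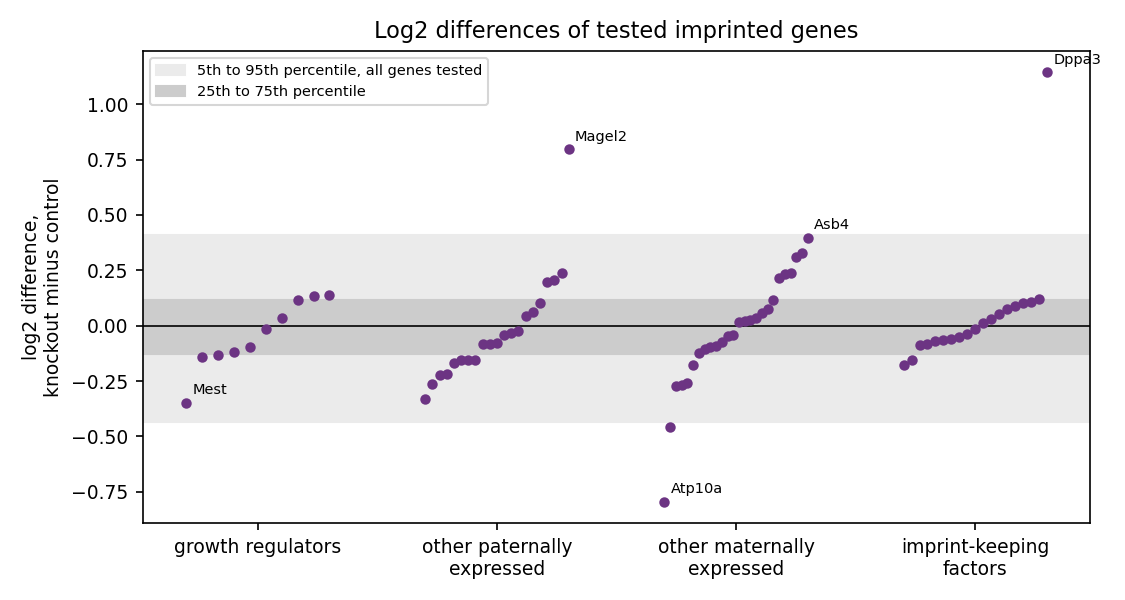
Log2 difference (vertical axis, knockout minus control) of the tested growth regulators, other paternally expressed genes, other maternally expressed genes and factors that keep imprints, 1 point per gene sorted by value, over the percentiles of all genes tested. Magel2 and the germ cell gene Dppa3 (1.14) lie above the 95th percentile, and Atp10a and Klf14 (-0.46) below the 5th.

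The factors that set, keep or erase imprints gave no call among 19 tested genes (limma, with none at an unadjusted p under 0.05, and none marked in the authors' deposited table), with a median of -0.014. Trim28, the corepressor that guards imprints, ranged from 610 to 759 TPM in knockouts and from 585 to 667 TPM in controls, with a log2 difference of 0.11. Ehmt2, a histone methyltransferase gene, had 0.077. Dppa3, which marks germ cells, varied between libraries of both groups, at 19.01, 8.55 and 4.55 TPM in knockouts and 16.59, 1.09 and 1.68 TPM in controls.

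Grb10 acts on the insulin and insulin-like growth factor receptors. Of 15 tested genes of that signalling limma called none. Of the 15, 8 had an unadjusted p under 0.05, against 11.3% of all genes tested. The authors' deposited table marks 1 as higher and 2 as lower, against 3.55% in either direction. The difference was positive in 1 and negative in 14 of the 15, where 48.2% of all genes tested were positive, with a median of -0.22. Nedd4, the ubiquitin ligase that binds Grb10, had a log2 difference of -0.16 and Akt1 one of -0.062. Grb14, an adaptor of the same family as Grb10, had the largest difference of the list and the other sign (log2 0.55; limma adjusted p = 0.182; authors' deposited table, adjusted p = 0.00144). It was at 7.08, 7.54 and 6.65 TPM in knockouts, against 4.18, 4.84 and 4.54 TPM in controls, without overlap. Igf1r, the receptor gene, was at 51.8, 49.2 and 51.3 TPM in knockouts, against 59.5, 65.0 and 65.4 TPM in controls. Its values did not overlap, and its log2 difference of -0.31 had a limma adjusted p of 0.132 (authors' deposited table, adjusted p = 0.000482).

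Of 14 tested cyclin-dependent kinases, cyclins and inhibitors around Cdkn1c, limma called none, and their median was -0.056. Of the 14, 4 had an unadjusted p under 0.05, against 11.3% of all genes tested. The authors' deposited table marks 1 as higher and 1 as lower, against 3.55% in either direction. Cdk4 had a log2 difference of 0.20 and Ccnd2 one of -0.15. Cdkn1a, an inhibitor of the same family as Cdkn1c, was at 23.5, 20.2 and 24.5 TPM in knockouts, against 31.8, 30.3 and 34.7 TPM in controls, with a log2 difference of -0.49 (limma adjusted p = 0.111; authors' deposited table, adjusted p = 0.00170), while that of Cdkn1c was 0.13. Ccne1, the gene of a cyclin that drives entry into S phase, was at 58.0, 52.5 and 55.1 TPM in knockouts, against 43.0, 43.0 and 45.7 TPM in controls, without overlap and in the other direction (log2 difference 0.32; limma adjusted p = 0.129; authors' deposited table, adjusted p = 0.0249). Of 10 tested Notch receptors and ligands, to which Dlk1 is related, limma called 0 higher and 1 lower, against 0.444% of all genes tested in either direction, and their median was -0.21. An unadjusted p under 0.05 was reached by 4 of the 10. The authors' deposited table marks 3 as lower, against 3.55% in either direction, namely Jag1, Notch1 (adjusted p = 0.000349) and Notch2 (adjusted p = 0.0184). The gene called by limma, Jag1, fell to 41.6, 35.3 and 37.3 TPM in knockouts, against 55.4, 56.3 and 59.5 TPM in controls (log2 difference -0.57; limma adjusted p = 0.0325). Igf1r, Grb14, Cdkn1a, Ccne1, Notch1 and Notch2 were named after their values were seen. The 16 tested genes of the imprinted network around Plagl1, which include 9 of the regulators and Igf2, had no limma call and a median of -0.092. Of the 16, 2 had an unadjusted p under 0.05, against 11.3% of all genes tested. The authors' deposited table marks 1 of them, Mest, as lower, against 3.55% in either direction.

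RefSeq gave promoter windows of 300 bases for 7 of the 10 regulators, 11 windows in all, on GRCm38.p6. Both strands were searched for CTTTGA, the core bound by the TCF/LEF factors of Wnt signalling, GGGGCCCC, bound by Plagl1, and AAGATGGC, bound by YY1; no motif overlaps another. Meg3 held the only match to CTTTGA, which occurs in 16.0% of 32851 windows of this length. Peg3 held the only match to GGGGCCCC, which occurs in 1.08% of them, and no window held AAGATGGC (2.75% of them). The windows with a match are printed with it in capitals, for Meg3 at chr12:109540746-109541045 on the plus strand and for Peg3 at chr7:6730370-6730669 on the minus strand. A match in such a window is a description of its letters and not a measured site.
Meg3 promoter: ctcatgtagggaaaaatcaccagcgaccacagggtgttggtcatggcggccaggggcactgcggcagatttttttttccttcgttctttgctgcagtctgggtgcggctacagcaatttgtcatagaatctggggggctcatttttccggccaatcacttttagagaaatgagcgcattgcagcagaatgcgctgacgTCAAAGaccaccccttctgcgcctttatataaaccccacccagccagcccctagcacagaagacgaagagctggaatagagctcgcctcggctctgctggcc
Peg3 promoter: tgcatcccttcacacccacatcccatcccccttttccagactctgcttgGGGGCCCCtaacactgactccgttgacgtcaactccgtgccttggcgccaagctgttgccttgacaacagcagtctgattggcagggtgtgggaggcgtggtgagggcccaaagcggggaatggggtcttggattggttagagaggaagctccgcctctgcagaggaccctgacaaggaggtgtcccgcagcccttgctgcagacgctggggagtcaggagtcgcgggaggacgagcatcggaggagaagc
A CpG content typical of CpG islands (observed over expected of at least 0.6) was found in 5 of the 11 windows, against 35.8% of all windows; these were windows of Nnat, Mest, Plagl1, Grb10 and Meg3. Of the 3 windows of Mest, the printed one is just under that value (0.590) and one that starts 3 bases further on is just over it (0.605), so these nearly identical windows were counted apart.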

How the data were processed

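Total RNA of 6 male mesonephroi was enriched for poly(A) RNA and read from both fragment ends (150 bases each), per the labels' protocols. The submitters' processing notes name GRCm39 and DESeq2; which aligner, counting tool, strand setting and gene filter were used is not given in the sources used here. Per library, the authors deposited 1 TPM column, per the file headers, each with a sum of 1000000. The authors' log2 fold change, p-value and adjusted p-value for knockout over control are deposited beside them and are quoted only where named; 1175 genes have no adjusted p.

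TPM is not a count, so the test was limma 3.58.1 in R 4.3.3, fitted to log2(TPM + 1) with genotype as the only term and a prior variance that follows the mean level. It covered the 17577 genes that reached 1 TPM in 3 or more libraries, with Benjamini-Hochberg adjustment and a threshold of 0.05. This scale understates changes of low genes. With 3 libraries per group, p-values set the difference between groups against the spread between these embryos, moderated by the prior variance. Whole reads were recovered for 20030 of 20033 genes within 0.02 reads, and they are lower bounds. A check took 1000 genes present in every library, of any level, and limited the search to 4000 reads. Of these genes, 89.4% gave whole reads from the deposited values and 0.1% once the values had been altered at random. The regulators, with 7174 or more recovered reads in each library, lay beyond the limit of that check. No 2 libraries of a group repeat each other (chi-square per degree of freedom of at least 7.34). The limma fit was tested on simulated reads with genes changed by known folds, all larger than the differences of the regulators.

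The regulators, lists and alternatives were chosen with earlier results of these data known. All 10 regulators and 14 domain partners are named whatever their outcome, and from each list up to 4 genes past the test or the 2 of highest level. Igf1r, Grb14, Cdkn1a, Ccne1, Notch1, Notch2, Cdh5, Kdr, Foxd1, Cyp17a1, Sox10, Acta2, Magel2, Atp10a, Klf14, Dppa3 and Dcn are named beyond that rule. Promoters and microRNAs come from RefSeq tables on GRCm38.p6, another build than the authors', and gene overlaps from GENCODE M21; no gene coordinates were taken from either for the expression values. Alternatives were other scalings, filters and pseudocounts, removal of erythroid genes, a fit without the trend, a replicate block, omission of each library and, added after seeing the data, limma-voom on the recovered reads.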

Additional observations from a re-analysis of the deposited data

How the results depend on the processing

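No regulator was called in any of 15 alternatives except 1, Mest without knockout 3; over the omissions of 1 library the count of called regulators ran from 0 to 1. With limma-voom on the recovered reads Mest had an adjusted p of 0.0521 and a log2 difference of -0.33. The differences of Dlk1, Peg3, Mest, Peg10, H19 and Cdkn1c kept their sign in all 15 alternatives. Small ones did not: over the omissions of 1 library Plagl1 ran from -0.26 to 0.027 and Meg3 from -0.20 to 0.0069 (both positive without knockout 1), Nnat from -0.059 to 0.18 (negative without control 1, knockout 1 or knockout 2) and Grb10 from -0.068 to 0.052 (positive without knockout 2 or control 3), and limma-voom gave 0.0031 for Grb10. The ratio of Meg3 over Dlk1, 0.038 higher in knockouts on the log2 scale, ran from -0.034 to 0.12 (negative without knockout 3 or control 1). The paternal minus maternal difference of -0.022 ran from -0.047 to 0.0037 over the omissions. For the regulators' summed share of TPM, an exact permutation test gave a two-sided p of 0.2. With median-ratio or upper-quartile scaling that test gave 0.1, its smallest possible p, so the overlap of the groups depended on the scaling. Among all genes, 78 were called, 284 by limma-voom, 28 without the trend and 13 to 242 over the omissions. Of the other imprinted genes 0 were called, 1 by limma-voom (Atp10a) and 0 to 1 over the omissions (Dcn, without knockout 3). The cause of these changes was not tested.

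With the mouse number as a replicate block, 17 genes were called in place of 78, none of them a regulator, and Mest had a limma adjusted p of 0.216. Over all genes tested, same-numbered libraries did not deviate together (Pearson r of -0.064, 0.050 and -0.051). That r covers mostly other genes, so it does not decide pairing for the regulators. With the block the SE fell for Peg3 (0.114 to 0.079), Meg3 (0.114 to 0.081), Mest, Dlk1, Grb10 and Cdkn1c. The SE rose for H19 (0.083 to 0.096), Nnat (0.130 to 0.142), Plagl1 and Peg10. The regulators' summed share was lower in the knockout of each same-numbered pair (differences of -0.095 to -0.044% of TPM). The numbers are not treated as pairs in the main test.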
